A study of Mus musculus with 17 samples.

Results

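Ackr1 and 6 genes for adhesion and secretion at activated venules (Selp, Sele, Vwf, Vcam1, Icam1 and Lrg1) were followed through the diaphragm of tumor-bearing and tumor-free mice. These 7 genes were picked by symbol out of 47643 symbols in the expression table, and all 7 were found. Ackr1 was put forward because it separated tumor-bearing from tumor-free mice in these same samples, so every difference of the 7 genes between those mice is given as a description without a test. Tests are given for the effect of rFibcd1 on the other genes. Since Ackr1 was put forward for being high in all tumor-bearing mice, those given rFibcd1 among them, and low in all tumor-free mice, its values in the rFibcd1 comparisons are not free of the choice and are given as a description too.

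Each of 17 male C57BL/6J mice, all 4 months old, gave 1 diaphragm sample for RNA-seq. Control mice (n = 5) carried no tumor and received mock injections, and Control + rFibcd1 mice (n = 5) carried no tumor and received the recombinant protein. LLC mice (n = 3) bore tumors grown under the skin of the flanks from Lewis lung carcinoma cells, a mouse line that causes wasting, and received mock injections. LLC + rFibcd1 mice (n = 4) bore the tumor and received the protein. rFibcd1 is the C-terminal part of mouse Fibcd1, which carries a fibrinogen-like domain, and was made with a baculovirus system. It was injected into the peritoneal cavity, which the diaphragm borders, and mock mice were given buffer with albumin. The tissue was part of the muscle, cleared of tendon, so vessels, blood and any attached tissue were sequenced together with the myofibers. A lower level of a gene therefore cannot be told apart from fewer cells of the type that makes it.

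Leukocytes leave the blood mainly through postcapillary venules. Endothelial cells there store P-selectin and von Willebrand factor in Weibel-Palade bodies, ready for release, and make E-selectin, VCAM-1 and ICAM-1 anew when TNF or IL-1 reaches them. Selectins let leukocytes roll, VCAM-1 and ICAM-1 hold them through integrins, and ACKR1 binds chemokines without signaling through G proteins and carries them across the venular wall. None of the 7 genes belongs to venules alone. Platelets and megakaryocytes also make Selp and Vwf, macrophages and stromal cells of lymphoid tissue can make Vcam1, many leukocytes carry Icam1, neutrophils and liver make Lrg1, and erythroid cells can make Ackr1.

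Sequences around the start sites were taken from RefSeq on GRCm38.p6 for 5 of the 7 genes (Ackr1, Selp, Sele, Icam1 and Lrg1), and those of Vwf and Vcam1 were not used here. The window from 250 bases before to 50 bases after each start was searched on both strands for 5 motifs. The letters were TGANTCA for AP-1 and TTCNNNGAA for STAT factors. For GATA factors they were AGATAA on either strand. A TATA box was searched as the letters TATAAA, and NF-kB by its consensus. The sequences below are shown because they hold the matches of the selectins, of Icam1 and of Ackr1, with the matches inside the printed stretch in capitals. They are written 5′ to 3′ on the strand of the gene. The 3 longer ones end at the base before the start, and that of Ackr1 is a stretch of 30 bases after its start.
Selp (chr1:164115014-164115263, plus strand): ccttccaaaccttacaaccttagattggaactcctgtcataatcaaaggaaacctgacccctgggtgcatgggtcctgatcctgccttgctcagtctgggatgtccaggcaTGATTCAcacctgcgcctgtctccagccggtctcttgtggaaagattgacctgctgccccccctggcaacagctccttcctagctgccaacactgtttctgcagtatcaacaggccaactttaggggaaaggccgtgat
Sele (chr1:164047984-164048233, plus strand): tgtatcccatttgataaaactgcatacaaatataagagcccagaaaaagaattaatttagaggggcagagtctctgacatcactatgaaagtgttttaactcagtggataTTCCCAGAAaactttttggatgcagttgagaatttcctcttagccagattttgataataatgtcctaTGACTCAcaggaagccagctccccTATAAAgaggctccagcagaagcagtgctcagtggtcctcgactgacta
Icam1 (chr9:21015690-21015939, plus strand): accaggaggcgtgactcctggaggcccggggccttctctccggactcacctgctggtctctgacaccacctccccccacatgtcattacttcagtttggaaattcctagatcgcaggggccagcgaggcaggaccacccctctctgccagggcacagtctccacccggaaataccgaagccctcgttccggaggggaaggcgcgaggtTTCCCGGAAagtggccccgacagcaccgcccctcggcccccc
Ackr1 (chr1:173333461-173333490, minus strand): agccctgggcacTTATCTtggagccacagc

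Both selectin windows held 1 AP-1 match, at bases -139 to -133 in Selp and -73 to -67 in Sele, counted back from the start. AP-1 letters occurred in 7.8% of 32851 windows of the same size. STAT letters were found in Sele (bases -140 to -132) and Icam1 (bases -42 to -34), against 8.3% of windows. The Ackr1 window held the GATA letters on the opposite strand at bases 26 to 31 after the start, which 11.2% of windows hold. TATA letters, present in 13.6% of windows, were found in Sele and, after the start and so outside the printed stretch, in Icam1 (bases 14 to 19) and in Lrg1 (bases 12 to 17), whose sequence is not printed. All starts here are those of RefSeq. For Ackr1, Icam1 and Lrg1 they differ from the GENCODE gene starts given below. The TATA letters of Icam1 lie before its GENCODE start (chr9:21015985). The NF-kB consensus, present in 8.5% of windows, had no match in these 5 windows, which says only that those letters are not there. A match of letters is a description and not a bound site.

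The 7 genes lie on 5 chromosomes of GRCm38 in GENCODE vM21, and all are protein-coding. Ackr1 spans chr1:173331886-173333750 on the minus strand with 1405 bases of exon, of which 361 (25.7%) are shared with Cadm3, a cell adhesion gene on the same strand. How reads in that stretch were divided is not stated in the sources used here. Cadm3 was at 2.50 ± 0.22 TPM in Control (SD, n = 5) and at 4.50 ± 0.13 in LLC (SD, n = 3), and its part in the Ackr1 values was not tested. Selp spans chr1:164115264-164150026 on the plus strand, downstream of Sele at chr1:164048234-164057677. Vwf spans chr6:125546774-125686679, Vcam1 chr3:116109949-116129688, Icam1 chr9:21015985-21028817 and Lrg1 chr17:56119678-56122001. An antisense gene overlaps 11.7% of the Icam1 exons and was not analysed here, and the noncoding genes overlapping Selp and Vcam1 stayed at or below 0.416 TPM. The sources disagree on whether the library kit kept the strand, so reads of an antisense gene may be included.

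Values are TPM (transcripts per 1000000), which are scaled by gene length and can be compared between genes. The estimated depth was 50.7 to 54.6 reads per mouse in units of 1000000. From the TPM steps, 49 to 446 reads per mouse stood behind Ackr1, 56 to 755 behind Selp, 493 to 2227 behind Vcam1, 715 to 2273 behind Icam1, 1402 to 4562 behind Lrg1 and 2020 to 4815 behind Vwf. Sele had 0 to 50 reads and was the least certain of the 7. Some mice stood apart from their group. Control + rFibcd1 replicate 1 had the highest summed macrophage markers of all 17 mice (1880 TPM), and replicate 2 of that group had liver transcripts (3041 TPM for 5 genes). LLC replicate 3 had 46940 TPM of red cell markers, against 3848 to 20953 in the other 16 mice, and 508.7 TPM of pericyte and smooth muscle markers, against 319.9 and 342.4 in the other LLC mice. Liver transcripts also reached 310.7 TPM in Control replicate 4 and 292 TPM in LLC + rFibcd1 replicate 4. Some values are also given without one of these mice.

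Ackr1, the atypical chemokine receptor of venules, was present at low level in tumor-free diaphragm and higher in every tumor-bearing mouse. Control mice had 2.38, 2.99, 1.46, 2.05 and 2.56 TPM, and Control + rFibcd1 mice had 4.03, 2.93, 2.74, 1.39 and 2.24 TPM. LLC mice had 9.64, 7.44 and 6.88 TPM, and LLC + rFibcd1 mice had 6.49, 12.7, 9.83 and 4.69 TPM. The lowest tumor-bearing mouse (4.69 TPM) stood above the highest tumor-free mouse (4.03 TPM). That mouse was Control + rFibcd1 replicate 1, without which the highest tumor-free value was 2.99 TPM and the group mean 2.32 ± 0.69 TPM (n = 4). The means were 2.29 ± 0.58 in Control (SD, n = 5), 2.67 ± 0.97 in Control + rFibcd1 (n = 5), 7.99 ± 1.46 in LLC (n = 3) and 8.43 ± 3.56 TPM in LLC + rFibcd1 (n = 4). This is 3.49 times Control in LLC and 3.68 times Control in LLC + rFibcd1. Only 1.74% of the 13305 genes tested were higher in tumor-bearing than in tumor-free mice without overlap, and Ackr1 was put forward for this pattern.

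Selp encodes P-selectin, which is stored in Weibel-Palade bodies and platelet granules. Control mice had 1.40, 0.81, 0.93, 1.40 and 0.96 TPM, and the 3 LLC mice had 4.08, 4.06 and 3.61 TPM. LLC + rFibcd1 mice had 2.92, 5.45, 3.36 and 1.78 TPM. All 7 tumor-bearing mice were above the Control mice, and the LLC mean was 3.57 times the Control mean. In Control + rFibcd1, replicate 1 reached 7.10 TPM, the highest Selp value of all 17 mice, while the other 4 mice had 1.12, 1.54, 0.48 and 1.39 TPM. The group mean was 2.33 ± 2.70 TPM (SD, n = 5) with that mouse and 1.13 ± 0.47 TPM (n = 4) without it. The same mouse also had the highest Ackr1, Vcam1 and Lrg1 of its group, and 50.3% of all genes tested were highest there within the group.

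Sele encodes E-selectin, which endothelium makes on stimulation and does not store. It was below the filter for testing, with less than 1 TPM in every mouse and at most 50 reads. LLC mice had 0.69, 0.52 and 0.38 TPM, and Control mice had 0.23, 0.08, 0.01, 0.10 and 0.24 TPM. The 3 LLC mice were above all Control mice, and the LLC mean was 3.98 times the Control mean. LLC + rFibcd1 mice had 0.16, 0.60, 0.16 and 0.12 TPM, so 3 of the 4 lay within the Control range and replicate 2 lay within the LLC range. Control + rFibcd1 mice had 0.34, 0.04, 0.34, 0 and 0.06 TPM. The 0 in replicate 4 of that group allows up to 3 reads, or 0.0386 TPM, counting error only.

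Vwf encodes von Willebrand factor, the adhesive glycoprotein that fills Weibel-Palade bodies and captures platelets. Control mice had 5.32, 5.52, 5.32, 6.14 and 6.07 TPM, and LLC mice had 10.7, 9.28 and 10.1 TPM. LLC + rFibcd1 mice had 9.26, 11.7, 11.6 and 9.49 TPM. The coefficient of variation of Vwf was 7.1% in Control, 24.1% in Control + rFibcd1, 7.0% in LLC and 12.7% in LLC + rFibcd1. Control + rFibcd1 mice had 6.06, 8.94, 5.92, 4.71 and 6.56 TPM, and the lowest tumor-bearing mouse (9.26 TPM) was just above the highest of them (8.94 TPM, the mouse with liver transcripts). Without that mouse the highest was 6.56 TPM. The mean was 5.67 ± 0.40 TPM in Control (SD, n = 5) and 10.5 ± 1.33 in LLC + rFibcd1 (n = 4), and the LLC mean was 1.76 and the LLC + rFibcd1 mean 1.85 times Control.

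**Figure D1:**
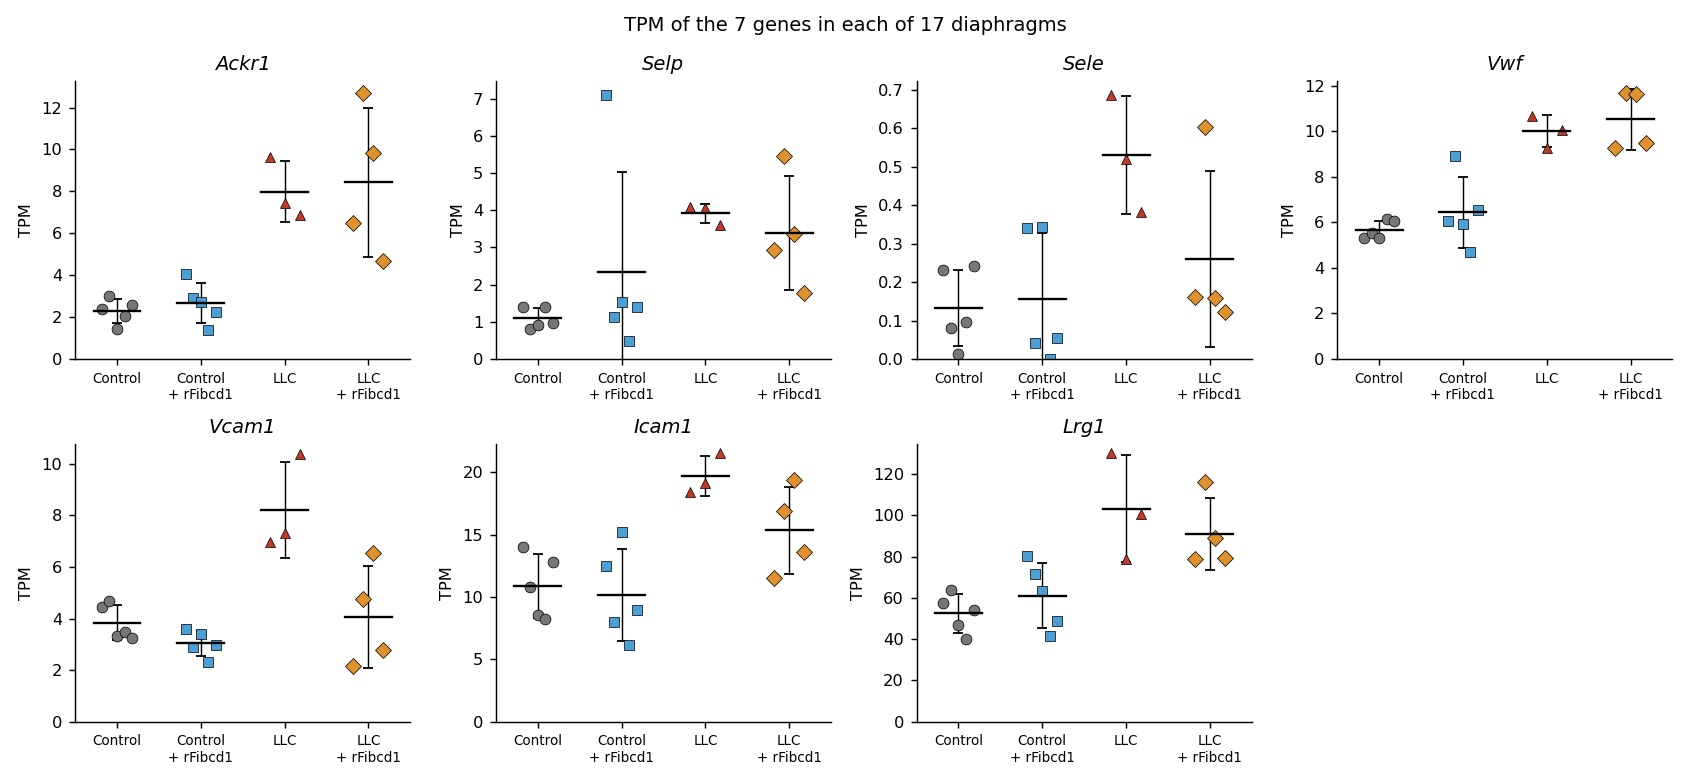
TPM (y axis, linear from 0) of each gene in each of the 17 mice by group, with 1 point per mouse, the mean as a horizontal line and the SD as a vertical bar, drawn only down to 0. The 7 tumor-bearing mice lie above all tumor-free mice for Ackr1 and Vwf, and the 4 LLC + rFibcd1 mice lie below the 3 LLC mice for Vcam1.

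Vcam1 encodes the endothelial ligand of the leukocyte integrin VLA-4. LLC mice had 6.95, 7.31 and 10.4 TPM, and LLC + rFibcd1 mice had 2.17, 4.74, 6.55 and 2.79 TPM. All 4 mice given the protein were below all 3 LLC mice. Control mice had 4.44, 4.69, 3.34, 3.47 and 3.24 TPM, and Control + rFibcd1 mice had 3.58, 2.92, 3.41, 2.33 and 2.97 TPM. The mean was 3.83 ± 0.67 TPM in Control (SD, n = 5), 8.21 ± 1.88 in LLC (n = 3) and 4.06 ± 1.99 in LLC + rFibcd1 (n = 4). The LLC mean was 2.14 times Control and the LLC + rFibcd1 mean 1.06 times Control, with 2 of its 4 mice below every Control mouse and 2 above.

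Icam1 encodes the ligand of the leukocyte integrin LFA-1. LLC mice had 18.4, 19.2 and 21.5 TPM, and the Control mice had 14.0, 10.8, 8.53, 8.21 and 12.8 TPM, without overlap. LLC + rFibcd1 mice had 11.5, 16.9, 19.4 and 13.6 TPM, which overlapped with both groups. Control + rFibcd1 mice had 12.5, 7.96, 15.2, 6.15 and 8.93 TPM. The mean was 10.9 ± 2.56 in Control, 19.7 ± 1.62 in LLC and 15.4 ± 3.49 TPM in LLC + rFibcd1 (SD), 1.81 and 1.41 times Control.

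Lrg1 encodes a secreted leucine-rich glycoprotein that modulates TGF-beta signaling in endothelium, and it was the most abundant of the 7 genes in TPM. LLC mice had 130.1, 78.8 and 100.6 TPM, and Control mice had 57.7, 63.7, 46.9, 39.9 and 54.2 TPM, without overlap. LLC + rFibcd1 mice had 78.9, 116.1, 89.0 and 79.5 TPM, also above every Control mouse. In Control + rFibcd1, 80.0, 71.5, 63.2, 41.5 and 49.0 TPM were found, and replicate 1 (80.0 TPM) reached into the tumor-bearing range. Without that mouse the highest tumor-free value was 71.5 TPM, below all tumor-bearing mice. The mean was 52.5 ± 9.28 in Control, 103 ± 25.7 in LLC and 90.9 ± 17.5 TPM in LLC + rFibcd1 (SD).

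In Control mice the order of mean TPM from high to low was Lrg1, Icam1, Vwf, Vcam1, Ackr1, Selp and Sele, and no neighbors in this order overlapped. The order of the means was the same in Control + rFibcd1 and in LLC. In Control + rFibcd1 the mice overlapped between Icam1 and Vwf, between Vcam1 and Ackr1 and between Ackr1 and Selp. In LLC the mice overlapped between Ackr1 and Vcam1 and between Vcam1 and Vwf. Overlap here compares ranges and does not pair the genes within a mouse, so it does not show that neighbors are alike. In LLC + rFibcd1 Vcam1 ranked below Ackr1 by its mean and within each mouse, with overlap between the mice of Vcam1 and those of both Ackr1 and Selp. The mice of that group also overlapped between Icam1 and Vwf and between Vwf and Ackr1.

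The comparison of LLC with Control asks what the tumor does to the diaphragm without the protein. All 7 genes were higher in LLC without overlap with Control, where 33.6% of the 13305 genes tested were higher without overlap. In LLC + rFibcd1 against Control, 4 of the 7 (Ackr1, Selp, Vwf and Lrg1) were higher without overlap, where 5.96% of genes were, and Sele, Vcam1 and Icam1 overlapped. Both comparisons share the same Control mice. The choice of the genes used these contrasts, so nothing is read from the counts. On the log2(TPM + 1) scale, which understates the change of low genes, the LLC minus Control difference was 1.46 ± 0.27 for Ackr1 (SE), 1.24 ± 0.40 for Selp, 0.72 ± 0.13 for Vwf, 0.92 ± 0.23 for Vcam1, 0.83 ± 0.24 for Icam1 and 0.95 ± 0.22 for Lrg1. The LLC + rFibcd1 minus Control difference was 1.46 ± 0.24 for Ackr1, 1.01 ± 0.36 for Selp, 0.78 ± 0.12 for Vwf, -0.0067 ± 0.21 for Vcam1, 0.46 ± 0.22 for Icam1 and 0.78 ± 0.20 for Lrg1. The median over all genes was 0.16 in the first comparison and 0.059 in the second. The 2 differences were farthest apart for Vcam1. Without LLC replicate 3 the LLC minus Control difference was 0.76 for Vcam1, 0.76 for Icam1 and 1.55 for Ackr1.

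The comparison of LLC + rFibcd1 with LLC asks whether the injected protein changes the level of these genes in tumor-bearing mice. Of the 6 genes that passed the filter, the 5 other than Ackr1 were tested and none was called by limma after Benjamini-Hochberg adjustment over 13305 genes, where 0.113% of all genes (15) were called and 22.7% had an unadjusted p under 0.05. Dunn's rank test, adjusted over all genes in the same way, called 0 genes. Among the 5, Vcam1 alone had an unadjusted limma p under 0.05. Its difference was -0.93 ± 0.24 on the log2(TPM + 1) scale (95% interval -1.43 to -0.42, limma adjusted p = 0.134), and the LLC + rFibcd1 mean was 0.495 times the LLC mean. It was lower in 4 of 4 mice, and 9.3% of all genes tested were lower without overlap. Without LLC + rFibcd1 replicate 3, which had the most Vcam1 and Icam1 of its group, the difference was -1.15 and the limma adjusted p 0.0485. Without LLC replicate 3, the mouse with the most Vcam1 (10.4 TPM) and with the most red cell transcripts, it was -0.77 with an adjusted p of 0.546, and without LLC + rFibcd1 replicate 1 it was -0.73 with 0.29. Over 28 alternative settings the adjusted p ranged from 0.00891 to 0.55. The direction was the same in all 28, but in some of them it was fixed in advance. Leaving out a tumor-free mouse, Dunn's test, no filter and the 2 groups alone all keep the difference at -0.93.

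For Ackr1 the LLC + rFibcd1 mean was 1.06 times the LLC mean. The difference was 0.0011 ± 0.28 on the log2(TPM + 1) scale, with a 95% interval from -0.59 to 0.59, so neither a moderate rise nor a moderate fall can be told from none. Vwf differed by 0.062 ± 0.14 (interval -0.23 to 0.36, adjusted p = 0.783). Selp differed by -0.23 ± 0.41 (adjusted p = 0.728) and Lrg1 by -0.17 ± 0.23 (adjusted p = 0.628), with intervals of -1.11 to 0.65 and -0.65 to 0.31. The Selp difference was -0.44 without LLC + rFibcd1 replicate 2 and -0.034 without replicate 4 of that group. Icam1 had 0.78 times its LLC level, a difference of -0.36 ± 0.25 (interval -0.90 to 0.17, adjusted p = 0.35). Sele had 0.492 times its LLC level, or 0.278 times without LLC + rFibcd1 replicate 2, and in the fit without a filter it differed by -0.29 ± 0.14 (95% interval -0.58 to 0.0, limma adjusted p = 0.273). The median of all genes in this comparison was -0.115, and that of the 6 genes was -0.20.

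**Figure D2:**
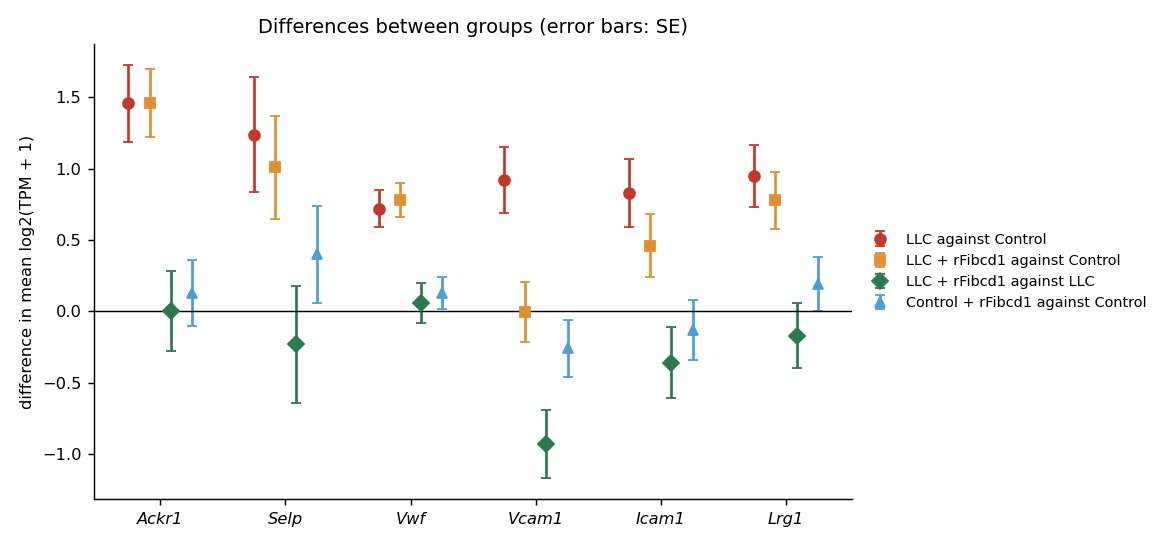
Difference in mean log2(TPM + 1) between groups (y axis) for the 6 genes that passed the filter, with the limma SE as bars and the 0 line in black. Both tumor groups stand at 1.46 above Control for Ackr1, whereas Vcam1 stands at 0.92 in LLC and at -0.0067 in LLC + rFibcd1.

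To compare the genes with each other within each mouse, the log2(TPM + 1) of one gene was subtracted from that of another and the difference was compared between LLC and LLC + rFibcd1. No test was run on these differences. Of the 15 pairs 4 had no overlap between the groups, where 14.4% of all pairs of genes had none, and the 15 share genes, so nothing is read from the count. Ackr1 minus Vcam1 averaged -0.03 in LLC and 0.90 in LLC + rFibcd1, a shift of 0.93. Vwf minus Vcam1 shifted by 0.99, Vwf minus Icam1 by 0.42 and Vcam1 minus Icam1 by -0.57, also without overlap. As a ratio of TPM, Vcam1 over Ackr1 was 0.721, 0.984 and 1.51 in LLC and 0.334, 0.373, 0.666 and 0.595 in LLC + rFibcd1, so all 4 of the latter lay below all others. In Control it was 1.87, 1.57, 2.29, 1.69 and 1.26, and in Control + rFibcd1 0.888, 0.994, 1.25, 1.68 and 1.32.

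**Figure D3:**
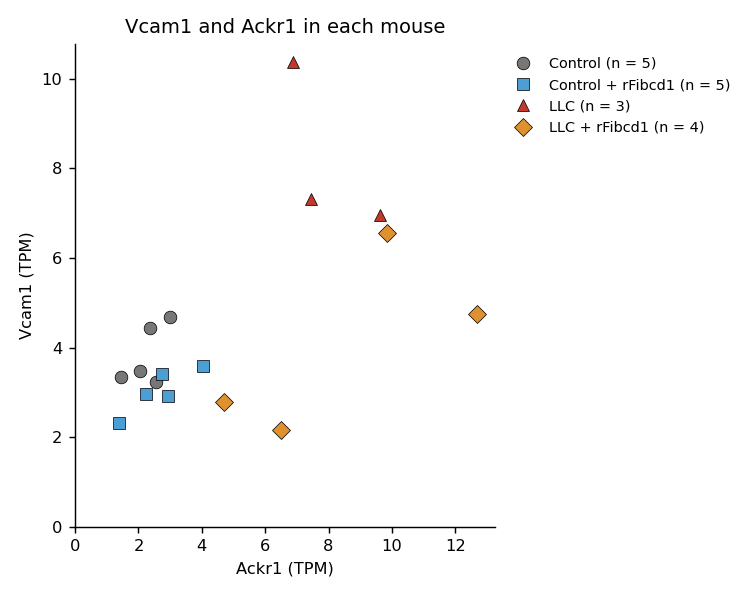
Vcam1 (y axis) against Ackr1 (x axis), both in TPM on linear axes from 0, with 1 point per mouse and the group given by color and shape. The LLC mice hold 6.95 to 10.4 TPM of Vcam1, and the LLC + rFibcd1 mice hold 2.17 to 6.55 TPM over an Ackr1 range of 4.69 to 12.7 TPM.

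In tumor-free mice, Control + rFibcd1 against Control asks for an effect of the protein alone. None of the 5 genes tested was called by limma, where 0.0% of all genes were called and 4.39% (584) had an unadjusted p under 0.05, none of the 5 among them. Dunn's test called 0 genes after the adjustment. None of the 7 was higher or lower without overlap, where 0.00752% of genes were higher and 0.804% lower in that way. The differences were 0.13 ± 0.23 for Ackr1 (95% interval -0.36 to 0.63), 0.40 ± 0.34 for Selp, 0.13 ± 0.11 for Vwf, -0.26 ± 0.20 for Vcam1 (interval -0.68 to 0.16), -0.13 ± 0.21 for Icam1 and 0.19 ± 0.19 for Lrg1, with limma adjusted p-values of 0.927 to 0.931 for the genes other than Ackr1. Without Control + rFibcd1 replicate 1, the Selp difference was 0.0040, that of Ackr1 0.0089, that of Lrg1 0.086 and that of Icam1 -0.21. Without replicate 2 of that group the Vwf difference was 0.025 and the Icam1 difference -0.062. The interaction of tumor and protein asks whether the protein acts alike in both settings, and for it 0.0% of all genes were called and 8.58% (1142) had an unadjusted p under 0.05. It was -0.67 ± 0.31 for Vcam1 (95% interval -1.33 to -0.01, limma adjusted p = 0.565), and none of the 5 genes tested was called. For Ackr1 it was -0.13 ± 0.36, as a description. Relative to the pan-endothelial mean the Vcam1 adjusted p was 0.0543, where 11.3% of all genes (1503) were called. Vcam1 was the only one of the 5 with an unadjusted p under 0.05.

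Within groups, some mice held the lowest or the highest values of many of the genes. Control + rFibcd1 replicate 4 had the lowest value of its group in 7 of the 7 genes, where 40.3% of all genes tested were lowest in that mouse. LLC + rFibcd1 replicate 2 had the highest value of its group in 5 of the 7 (43.1% of all genes), and LLC replicate 1 in 5 of the 7 (35.7%). In LLC and in LLC + rFibcd1, the mouse with the most Ackr1, Selp, Sele, Vwf and Lrg1 was thus not the mouse with the most Vcam1 and Icam1, which was replicate 3 in both groups. Replicate 3 was highest for 48.4% of all genes tested in LLC and for 32.2% in LLC + rFibcd1, so nothing is read from this split. After the group means were removed, Pearson's r of log2(TPM + 1) over the 17 mice was 0.801 for Ackr1 with Lrg1, 0.708 for Ackr1 with Selp and 0.671 for Vcam1 with Icam1. It was lowest for Vwf with Icam1, at 0.173. These values are descriptions over mice that share the scaling of their library.

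The order of the mice within a group matched that of immune markers for some genes in some groups. In LLC + rFibcd1 Vcam1 and Icam1 both ranked replicates 1, 4, 2 and 3 from low to high, as did the summed B cell markers (17.95, 21.5, 128 and 280 TPM in that order) and the summed T cell markers. Ackr1 and Selp ranked replicates 4, 1, 3 and 2, as did the summed macrophage markers (471, 501, 742 and 1152 TPM). In Control, Vcam1 ranked the 5 mice as the B cell, T cell and macrophage sums did (replicates 5, 3, 4, 1 and 2), and Ackr1 did not. In Control + rFibcd1 neither Vcam1 nor Ackr1 ranked the mice as any of these sums did. In LLC Vcam1 ranked the 3 mice as the T cell sum did but not as the B cell and macrophage sums did, and Ackr1 as none of them. There Ackr1, Selp and Sele ranked the mice as the pan-endothelial sum did. In LLC + rFibcd1 Sele ranked the mice as the neutrophil sum did, and Vwf and Lrg1 as none of the immune sums. The share of all genes with each order was not counted, so nothing is read from a match. With the B cell mean as a covariate, the Vcam1 difference between LLC + rFibcd1 and LLC was -0.57 ± 0.17 (limma adjusted p = 0.513), and with the macrophage mean it was -0.77 ± 0.24 (adjusted p = 0.361). The difference between tumor-bearing and tumor-free mice was 1.39 ± 0.18 for Ackr1, 1.05 ± 0.19 with the B cell covariate and 1.05 ± 0.17 with the macrophage covariate. For Vcam1 it was 0.52 ± 0.15, 0.15 ± 0.13 and 0.34 ± 0.18, and for Selp 0.91 ± 0.27, 0.42 ± 0.28 and 0.30 ± 0.20. Both covariates were chosen after the data were seen.

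The summed markers of B cells, T cells, neutrophils and macrophages were higher in all 3 LLC mice than in all Control mice. The 7 B cell markers summed to 2.42 to 97.5 TPM in Control, 3.43 to 136.9 in Control + rFibcd1, 221.5 to 282.5 in LLC and 17.95 to 280.2 in LLC + rFibcd1. All 7 rose in tumor-bearing against tumor-free mice by limma, where 38.8% of all genes were called higher. Of 8 macrophage markers 5 rose. A gene that passed the filter only with the tumor-bearing mice had to be higher there, so it is left out of the other counts, and 3 of 3 T cell and 4 of 4 neutrophil markers that passed in tumor-free mice rose, where 38.1% of 12570 such genes did. In LLC + rFibcd1 against LLC the 7 B cell, 8 macrophage and those 3 T cell markers had differences below 0 and none was called. The median of all genes there was -0.115. The share of all genes below 0 was not counted, so nothing is read from these counts. The 5 adipocyte and 5 mesothelium markers moved the same way, with medians of -1.03 and -0.57 in this comparison. With the tumor their medians were 1.24 and 0.57, and 1 of 5 rose in each list. The adipocyte markers summed to 304.8 to 1708 TPM in Control, 369.5 to 2443 in Control + rFibcd1, 1064 to 5120 in LLC and 492.1 to 2720 in LLC + rFibcd1. The mesothelium markers summed to 59.0 to 149 TPM in Control, 23.1 to 136 in Control + rFibcd1, 98.4 to 176 in LLC and 60.3 to 165 in LLC + rFibcd1. The part of these cells in the Vcam1 and Icam1 values was not tested. Red cell markers rose in 5 of 5 that passed in tumor-free mice, and their part in the Ackr1 values was not tested. The 5 tested platelet markers were not called, with a summed level of 23.0 to 44.4 TPM in Control, 21.5 to 71.7 in Control + rFibcd1, 41.4 to 63.5 in LLC and 25.3 to 79.1 in LLC + rFibcd1. Myofiber markers summed to 45816 to 50072 TPM in Control and 45107 to 50905 in Control + rFibcd1. Their sums were 39677 to 42103 TPM in LLC and 40939 to 47887 in LLC + rFibcd1. Of these 8 markers 5 fell in tumor-bearing mice, where 5.98% of all genes did.

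**Figure D4:**
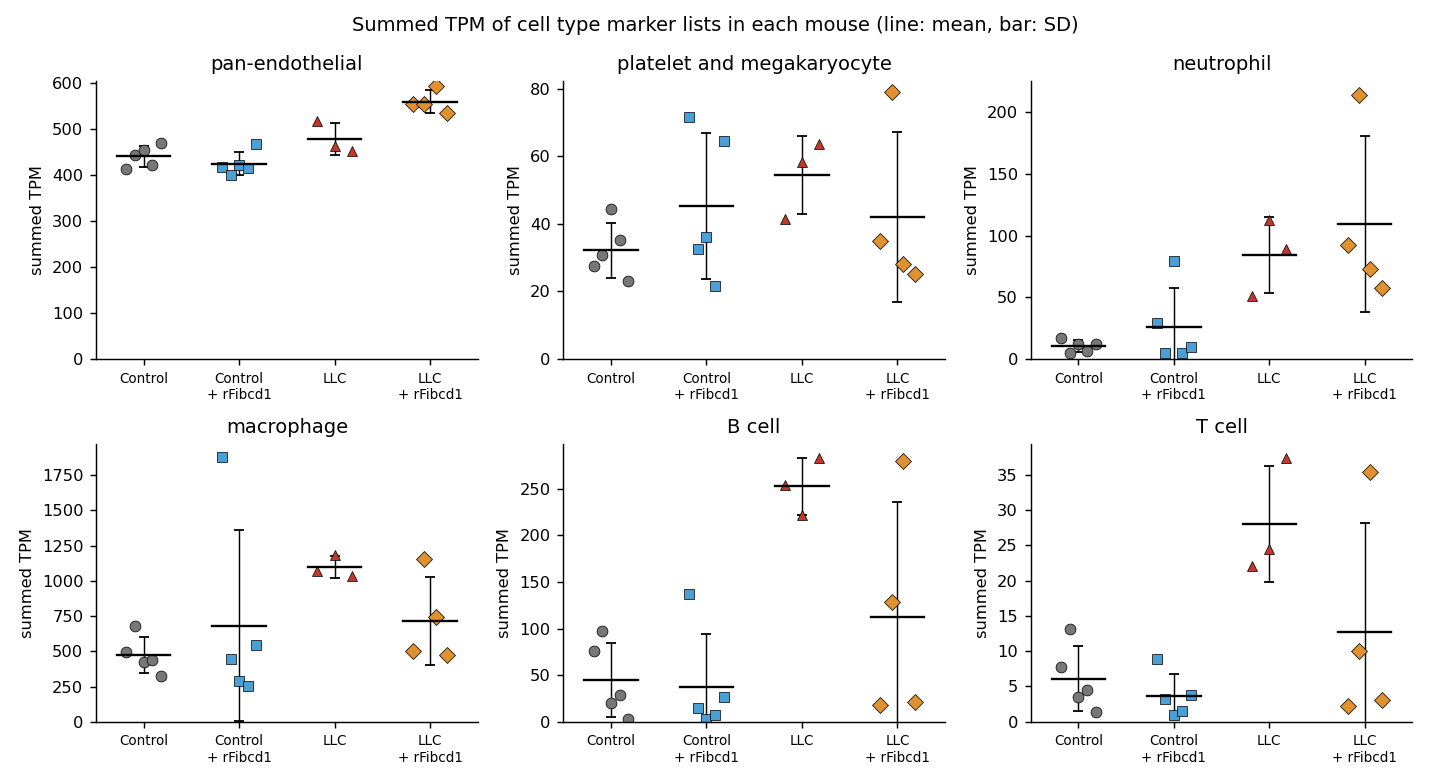
Summed TPM (y axis, linear from 0) of 6 marker lists in each mouse by group, with 1 point per mouse, the mean as a line and the SD as a bar, drawn only down to 0. LLC mice hold 221.5 to 282.5 TPM of B cell markers against at most 97.5 in Control, and LLC + rFibcd1 mice hold the highest pan-endothelial sums, 534.5 to 595.2 TPM.

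The vessel itself was measured by 16 pan-endothelial markers, which summed to 412.7 to 469.1 TPM in Control, 400.2 to 467.1 in Control + rFibcd1, 453.2 to 517.6 in LLC and 534.5 to 595.2 in LLC + rFibcd1. Of these, 8 rose and 1 fell in tumor-bearing against tumor-free mice (limma, median of the list 0.20, against 0.13 for all genes), where 38.8% of all genes rose and 5.98% fell. Pecam1, a junction and adhesion protein of all endothelium, rose by 0.39 ± 0.045 (limma adjusted p = 0.000187), and Esam, of the same junctions, also by 0.39. Relative to the mean of the 16 markers, the tumor-bearing minus tumor-free difference was 1.17 ± 0.17 for Ackr1, 0.69 ± 0.27 for Selp, 0.54 ± 0.15 for Lrg1, 0.47 ± 0.09 for Vwf, 0.46 ± 0.16 for Icam1 and 0.30 ± 0.15 for Vcam1. In the same scale Vcam1 differed by -1.13 ± 0.24 between LLC + rFibcd1 and LLC (limma adjusted p = 0.00891), where 56.9% of all genes were called and the markers that set the scale were themselves higher in LLC + rFibcd1.

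Vein identity was measured by 4 markers. Of these, which summed to 31.8 to 41.6 TPM in Control and 37.0 to 46.6 in LLC, Ephb4, the venous ephrin receptor, rose by 0.39 ± 0.052 (limma adjusted p = 0.000431). The other 3 were not called, among them Nr2f2, the COUP-TFII factor that sets vein identity (0.19 ± 0.11, adjusted p = 0.193). Bulk TPM cannot place the 7 genes in a cell type, and their source in venules was not tested. Arterial markers rose in 3 of 8 and capillary markers in 1 of 6, where 38.8% of all genes rose, so neither count stands above that share. Of the markers of high endothelial venules, the lymphocyte gateways of lymph nodes, Glycam1 was at 0.69 ± 1.18 TPM in Control (SD), 0.066 ± 0.15 in Control + rFibcd1, 7.63 ± 2.32 in LLC and 4.04 ± 6.59 in LLC + rFibcd1. It passed the filter only with the tumor-bearing mice, so its difference of 1.81 ± 0.47 is given without a test. Chst4 was not called and the other 2 were below the filter.

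The partners of the 7 genes were taken from 8 lists with 79 distinct genes, of which 69 were tested. In tumor-bearing against tumor-free mice 50 of the 69 rose and 0 fell by limma, where 38.8% of all genes tested rose and 5.98% fell. Of these, 4 (Fut4, Alcam, Tnf and Il1b) passed the filter only with the tumor-bearing mice, and of the other 65 genes 46 rose (70.8%, where 38.1% of all genes that passed in tumor-free mice rose). With the B cell mean as a covariate 12 of the 69 rose and 0 fell, where 3.49% of all genes rose and 0.985% fell. Relative to the pan-endothelial mean 19 rose and 4 fell, where 5.34% of all genes rose and 29.5% fell. With quantile normalization 30 rose and 4 fell, where 13.7% of all genes rose and 25.0% fell. The counts in these settings are over the 69 and hold the 4 that passed only with the tumor-bearing mice, so they are descriptions. Pecam1, Esam, Cdh5, Emcn, Tek and Eng are partners and also belong to the markers that set the pan-endothelial scale. In LLC + rFibcd1 against LLC 0 of the 69 were called, where 0.113% of genes were, and Dunn's test also called 0 after the adjustment.

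Leukocyte partners are the molecules through which rolling and arrested cells grip the wall. Of 11 that passed the filter in tumor-free mice, 10 rose in tumor-bearing mice, where 38.1% of all genes that passed in this way did. Selplg, the P-selectin ligand PSGL-1, rose by 1.20 ± 0.33 on the log2(TPM + 1) scale (limma adjusted p = 0.0109), from 5.77 ± 2.80 TPM in Control to 18.1 ± 2.74 in LLC (SD). Itgal, the alpha chain of LFA-1 that binds ICAM-1, rose by 1.26 ± 0.32 (adjusted p = 0.0079), and Cd44, a ligand of E-selectin in some glycoforms, by 0.86 ± 0.22. Itgb1, the beta chain of VLA-4, which binds VCAM-1, and is made by most cells, rose by 0.20 ± 0.050 but was at -0.023 relative to the pan-endothelial mean. The same 11 had differences below 0 in LLC + rFibcd1 against LLC, and none was called. The median of all genes there was -0.115, and the share of all genes below 0 was not counted, so nothing is read from this count.

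Chemokines that ACKR1 binds were mostly low. Of 8 listed, 5 were tested and 2 rose in tumor-bearing mice (near the share of all genes, 38.8%): Ccl5, made by T cells among others, by 1.40 ± 0.41 (limma adjusted p = 0.0133) and Ccl2, the monocyte attractant, by 0.39 ± 0.14 (adjusted p = 0.0372). Ccl5 averaged 2.18 ± 1.95 TPM in Control, 11.8 ± 4.95 in LLC and 4.25 ± 4.37 in LLC + rFibcd1 (SD), and Ccl2 2.68 ± 0.88, 2.81 ± 0.27 and 3.64 ± 0.72 TPM. For Ccl2 LLC was close to Control, and the lowest mean was that of Control + rFibcd1 (1.98 ± 0.70 TPM). Of the other atypical chemokine receptors, Ackr2 rose by 0.36 ± 0.10 (adjusted p = 0.0131), Ackr3 differed by 0.15 ± 0.087 (adjusted p = 0.164) and Ackr4 by 0.072 ± 0.093 (adjusted p = 0.541).

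Of 13 other adhesion and junction genes of endothelium that passed the filter in tumor-free mice, 10 rose, where 38.1% of all such genes did. Mcam, a junction protein of endothelium and pericytes, rose by 0.67 ± 0.11 (limma adjusted p = 0.000888) and Podxl, a sialomucin of the luminal surface, by 0.47 ± 0.078 (adjusted p = 0.00112). Genes for Weibel-Palade bodies and partners of Vwf rose in 7 of 8, where 38.8% of all genes did. Plat, the tissue plasminogen activator that endothelium secretes, rose by 0.60 ± 0.11, Rab3d, a GTPase of secretory granules, by 0.55 ± 0.14, and Cd63, a membrane protein of these bodies and of lysosomes, by 0.32 ± 0.050. Tek, the receptor of the angiopoietins, one of which is stored there, rose by 0.32 ± 0.045.

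Inducers were measured as 3 lists. Of 12 genes for TNF, IL-1 and NF-kB that passed the filter in tumor-free mice, 8 rose, where 38.1% of all such genes did. Il1b, the cytokine itself, was at 0.33 ± 0.18 TPM in Control, 2.53 ± 1.22 in LLC and 2.74 ± 1.21 in LLC + rFibcd1 (SD). It passed the filter only with the tumor-bearing mice, so its difference of 1.34 ± 0.18 is given without a test. Its receptor Il1r1 rose by 0.63 ± 0.12, the TNF receptor Tnfrsf1a by 0.51 ± 0.085 and the NF-kB subunit Rela by 0.38 ± 0.069. Of 5 tested genes for IL-6 and STAT3, whose pathway is known to induce Lrg1, 4 rose, where 38.8% of all genes did: Socs3, a feedback inhibitor, by 0.69 ± 0.24, the oncostatin M receptor Osmr by 0.53 ± 0.076, Stat3 by 0.37 ± 0.061 and the shared receptor chain Il6st by 0.25 ± 0.067. Of 8 genes for the TGF-beta receptors on which LRG1 acts, 4 rose, where 38.8% of all genes did, and the count is not read as a result about the list: Tgfb1 by 0.61 ± 0.14, the co-receptor Eng by 0.52 ± 0.10, the endothelial type I receptor Acvrl1 by 0.33 ± 0.077 and Tgfbr2 by 0.31 ± 0.098.

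The genes whose log2(TPM + 1) followed Ackr1 most closely over the 17 mice, by Pearson's r, were Entpd1 (0.955), Csf2rb2 (0.952), Plvap (0.945), Osmr (0.936) and Cd300lf (0.935). Plvap, a protein of the diaphragms of endothelial caveolae and fenestrae, averaged 22.3 ± 6.27 TPM in Control, 20.4 ± 6.71 in Control + rFibcd1, 53.8 ± 10.6 in LLC and 45.5 ± 14.9 in LLC + rFibcd1 (SD). Entpd1, the ectonucleotidase CD39 of endothelium and leukocytes, averaged 6.26 ± 0.56, 6.29 ± 0.89, 11.7 ± 0.87 and 10.7 ± 1.49 TPM in the same order. These values of r hold the difference between tumor-bearing and tumor-free mice. Cd300lf averaged 0.17 ± 0.11 TPM in Control and 0.20 ± 0.15 in Control + rFibcd1 (SD), against 1.17 ± 0.18 in LLC. It thus passed the filter only with the tumor-bearing mice, and its r is in part set by that filter. After group means were removed, the closest were Psmd14 (0.912), Itpr2 (0.898), Ing3 (0.881), Lipa (0.877) and Plvap (0.876), so Plvap stood in both lists. The r values are descriptions, as the mice share the groups and the scaling of each library.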

How the data were processed

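RNA-seq of 17 diaphragms was used. The authors trimmed and aligned the reads to GRCm38 (mm10) in CLC Genomics Workbench and deposited TPM per gene symbol, and 0 columns were without a sample. Mitochondrial transcripts make up 41.3% to 50.4% of the TPM of a sample, so their share moves the other values. It was 43.2%, 44.3% and 41.3% in the LLC mice and 45.4% or more in every tumor-free mouse. Depth was estimated from TPM steps and GENCODE vM21 exon lengths (80.8% to 83.6% of low values within 0.02 of a whole read). Groups came from the sample titles. A gene was kept where 3 or more samples reached 1 TPM (13305 genes), and log2(TPM + 1) was fitted with limma 3.58.1 in R 4.3.3, with 4 groups, a trend in the prior variance and 13 residual degrees of freedom. Tests were two-sided, with Benjamini-Hochberg adjustment over all genes and a threshold of 0.05. The fit was tested on simulated data. Other values were computed in Python 3.11.15. The members and lists were chosen with earlier results of these data known. Named partners were at most 4 per list, those with the smallest p in tumor-bearing against tumor-free mice, and the 5 genes closest to Ackr1 by each r. Cd99 and Itgam were not analysed here. P-values measure the spread between mice.

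Alternatives were a pseudocount of 0.1, no filter, other scalings, values relative to pan-endothelial markers, immune markers as covariates, the 2 groups alone, Dunn's test, the replicate number as a block, and leaving out each mouse. No batch was given in the labels.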

Additional observations from a re-analysis of the deposited data

Results flagged for a closer look

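Selp in Control + rFibcd1 replicate 1 was 7.10 TPM, with a gap to the next mouse of 0.839 of the range of the group, above the critical value of 0.71 for 5 samples. In LLC + rFibcd1 replicate 2, Sele was 0.603 TPM, with a gap of 0.918 of the range against a critical value of 0.829 for 4 samples. Of 21 groups of values tested in this way 2 stood out, and chance gives about 1 in 20. In the first mouse the summed macrophage markers were 1880 TPM, the adipocyte markers 2443 TPM and the platelet markers 71.7 TPM, each the highest of its group, and their part in the Selp value was not tested.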

How the results depend on the processing

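Depth limits Sele (0 to 50 reads) and, less so, Ackr1 and Selp in tumor-free mice, and 3 LLC mice limit every comparison with LLC. Of the members other than Ackr1, those called in LLC + rFibcd1 against LLC numbered 0, and 1 relative to the pan-endothelial mean (Vcam1). Without 1 mouse they numbered 0 to 1, the 1 being Vcam1 without LLC + rFibcd1 replicate 3. The 15 genes called over all genes there became 0 without LLC replicate 1 or LLC + rFibcd1 replicate 1 or 4, 1 without LLC replicate 3, 6 without Control replicate 1 or Control + rFibcd1 replicate 2 or 5, 28 without LLC replicate 2, 29 without Control + rFibcd1 replicate 1 and 33 without LLC + rFibcd1 replicate 3. They became 2 with a pseudocount of 0.1 or the 2 groups alone, 9 with median-ratio scaling and 48 with no filter. Of the partners, 50 called in tumor-bearing mice became 12 with the B cell covariate, 15 with the macrophage covariate and 23 relative to the pan-endothelial mean (19 higher and 4 lower), and 37 to 53 without 1 mouse. Their 0 calls in LLC + rFibcd1 against LLC became 1 with median-ratio scaling, 1 with quantile normalization and 37 relative to the pan-endothelial mean. All these counts hold the 4 partners that passed the filter only with the tumor-bearing mice, and some partners help to set the pan-endothelial scale. For the interaction, the 0 genes called became 1503 relative to the pan-endothelial mean and 11 without LLC replicate 2, with 0 members called in both. The causes were not tested.

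Scaling moved the background: of 5963 genes called in tumor-bearing mice 5167 were higher, against 2539 of 4812 with median-ratio scaling, 1819 of 5144 with quantile normalization, 3544 of 5063 without mitochondrial genes and 710 of 4640 relative to the pan-endothelial mean. The median of all genes was 0.13, 0.006, -0.057, 0.069 and -0.089 in that order. The 6 members stayed above 0 in that contrast under each of these, but the choice of the genes used that contrast, so nothing is read from it.

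Differences that changed sign were small. In LLC + rFibcd1 against LLC, Ackr1 was -0.0080 with a pseudocount of 0.1 and -0.20 relative to the pan-endothelial mean, Vwf -0.14 relative to that mean, Selp 0.26 and Lrg1 0.032 with the B cell covariate, and Selp 0.29 and Lrg1 0.023 with the macrophage covariate. For the interaction, Ackr1 was 0.12 and 0.14 with these covariates, and Ackr1 was 0.0004 and Vwf 0.036 with quantile normalization. In tumor-bearing mice Ackr3 was -0.021 with the macrophage covariate, and relative to the pan-endothelial mean Ackr3 was -0.068, Ackr4 -0.15, Itgb1 -0.023 and Nr2f2 -0.032. Ackr4 was -0.046 with median-ratio scaling and -0.15 with quantile normalization, where Nr2f2 was -0.016. Leaving out 1 mouse gave -0.21 to 0.22 for Ackr1 and -0.35 to 0.011 for Lrg1 in LLC + rFibcd1 against LLC, -0.23 to 0.19 for Vcam1 in LLC + rFibcd1 against Control, -0.28 to 0.019 for Icam1 in Control + rFibcd1 against Control, and -0.34 to 0.084 for Ackr1 and -0.16 to 0.037 for Vwf in the interaction.

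The replicate numbers mark different mice, and of 22 pairs of mice with the same number only 4 had deviations correlated above 0.1 (r from -0.459 to 0.485), so they share only a number. With the replicate number as a block, 0 members were called in LLC + rFibcd1 against LLC, Vcam1 differed there by -0.84 (limma adjusted p = 0.363), the interaction of Ackr1 was 0.013, and 3782 genes were called in tumor-bearing mice and 0 in LLC + rFibcd1 against LLC.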
